A study of Mus musculus with 132 samples.

Results

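The genes described here are 36 genes of sugar breakdown and of the response to low oxygen, chosen by symbol from the deposited expression table of loaded mouse bone. The table holds 23412 rows, and all 36 symbols were found in it. Genes entered the tests if 4 or more libraries had a value of 10 or above. This held for 34 of the 36 genes and for 13050 genes in all. The remaining members, the enolase gene Eno1 and the carbonic anhydrase gene Car9, reached at most 7.54 and 8.502 in any library and were not tested.

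Glycolysis splits glucose into pyruvate in the cytosol and yields ATP without oxygen, and cells that rely on it export the end product as lactate. The hypoxia-inducible factors are transcription factors whose alpha subunits, HIF-1 alpha (Hif1a) and HIF-2 alpha (Epas1), are hydroxylated by the EGLN enzymes when oxygen is present and are then degraded. When oxygen is low they accumulate, bind short DNA motifs with the core letters ACGTG or GCGTG, and raise glucose transporters, most glycolytic enzymes and genes such as Bnip3, Adm and Egln3. Osteocytes are walled into mineral, osteoblasts are strongly glycolytic, and skeletal muscle around bone carries its own enzyme forms, so these genes can report on several cell types in a bone sample.

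The series sequenced 3′ ends of messenger RNA from the tibial cortex of 22 mice (C57Bl/6J, female, 10 weeks old), with no transgene and no drug named in the labels. The left tibia received 1200 compressions a day at 4 Hz with 9 N as the peak force. The opposite limb of the same mouse was the control. Mice were killed 1 h (5 mice), 3 h (4 mice) or 24 h (4 mice) after a single bout, 24 h after the last of 7 daily bouts (7 d, 4 mice), or on the 8th day of a protocol with 5 daily bouts (5 d, 5 mice). Each tibia gave a metaphyseal shell near the knee, a proximal diaphysis and a mid-diaphysis, freed of cancellous bone, which made 6 libraries per mouse. The control limb belonged to an animal that had itself been loaded on the other side.

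Reads assigned to genes numbered 290325 to 5410458 per library (median 1698314). Osteoblast and osteocyte markers were present in every segment: the 8 osteoblast genes summed to medians of 130600 to 204200 and the 6 osteocyte genes to medians of 1046 to 1684 in control limbs. Markers of other tissues varied widely, and the sum of 14 skeletal muscle genes ran from 82.2 to 287100 between libraries. A group of 4 mid-diaphysis libraries (the loaded limb of mouse 2 and the control limb of mouse 3 at 1 h, and the loaded limbs of mice 4 and 5 at 5 d) stood apart, with mesothelial-type markers summing to 1074 to 1150. A further 3 libraries, all of control limbs, stood apart less sharply: proximal diaphyses of mouse 3 (3 h) and mouse 2 (7 d), and the mid-diaphysis of mouse 4 (7 d). Osteoblast markers summed to 1022000 and 797100 in the 7 d libraries, the highest of all, but to 197000 in the 3 h library. What set that 3 h library apart is not given here. Libraries rich in marrow formed another set of 3, seen only after the tests: the loaded proximal diaphysis and the control mid-diaphysis of mouse 5 (1 h) and the loaded mid-diaphysis of mouse 1 (7 d). Their neutrophil markers summed to 70260 to 147100 and their erythroid markers to 5696 to 7573, against at most 51700 and 2435 in all others. Their osteocyte markers were the lowest, at 58.7 to 291. Beside most results that rest mainly on such libraries, values without them are given. In whole tissue, fewer cells of a type and less RNA per cell cannot be told apart. Levels below are the authors' normalised counts, differences are means over mice on the scale log2(normalised count + 1) ± SE, and adjusted p-values are from limma with the Benjamini-Hochberg method over all 13050 genes.

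None of the 34 tested genes passed an adjusted p of 0.05 between loaded and control limbs (limma) in any of the 15 comparisons of a segment at a time. The share of all genes called in the same comparisons was 0% in 12 of the 15 and 0.00766% in the other 3 (the shell at 5 d and at 7 d and the proximal diaphysis at 1 h), so a count of 0 is also what most genes gave. Averaged over the 3 segments of each mouse, the count was again 0 of 34 at each of the 5 times, beside 0.0153% of all genes at 1 h, 0% at 3 h, 0.00766% at 24 h, 0.0383% at 5 d and 0.123% at 7 d. At an unadjusted p under 0.05, by limma, 9 of 34 members were found for shells and 7 for proximal diaphyses at 7 d, 6 in the mid-diaphysis at 3 h and 3 there at 5 d, and 0 to 2 in each of the other 11. The share of all genes at this unadjusted cut is not given here, so these counts are not read as a response of the members. Counted by other methods on the recovered reads, edgeR called 0 members and DESeq2 called 1, Pfkm in the shell at 7 d (adjusted p = 0.0349). A fit with one spread for all segments called 2, Pfkfb3 and Mxi1 in the proximal diaphysis at 7 d (adjusted p = 0.0272 and 0.0490). The share of all genes called by these other methods is not given here, so their counts are not read as a result about the members.

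**Figure D1:**
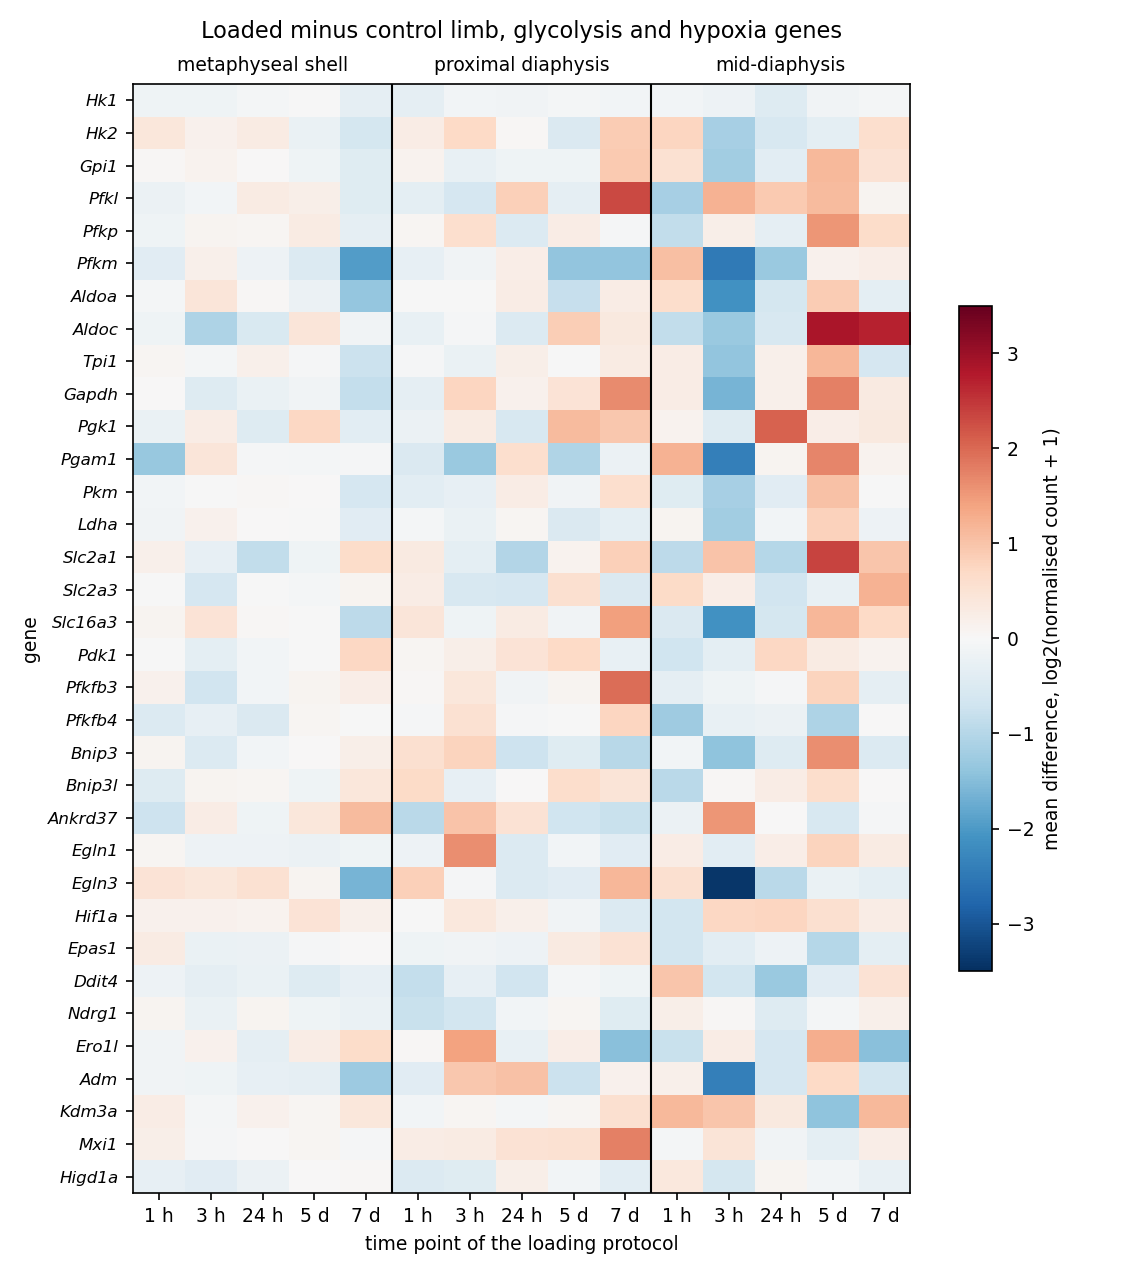
Mean difference between loaded and control limb (colour, log2 of normalised count + 1) for the 34 tested genes (rows) at 5 times within each of 3 segments (columns, n = 4 or 5 mice). The mid-diaphysis columns hold the deepest colours, down to -3.40 for Egln3 at 3 h, and no cell passed an adjusted p of 0.05.

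The median difference of the 34 genes stayed near that of all genes in the shell, at -0.07 to -0.01 for the 4 times before 7 d against -0.02 to 0.02 for all genes, and was -0.20 against -0.01 at 7 d. In the mid-diaphysis it ranged from -0.41 at 3 h to 0.65 at 5 d, where all genes had medians of -0.03 and -0.01. Without the 4 libraries that stood apart, among them the loaded mid-diaphyses of mice 4 and 5, the median at 5 d was -0.02. In the proximal diaphysis at 3 h and 7 d all genes were shifted up by 0.34 and 0.29, while the members' medians were -0.03 and 0.28. Without the 7 libraries all genes had medians of 0.05 and 0.06 there and the members -0.20 and 0.13. An F test asked whether the averaged response differed between the 5 times, and another whether it differed between the 3 segments. Neither called a member, beside 0.046% and 0.00766% of all genes. The test between segments at a single time also called 0 of 34 at each time, beside 0% of all genes at 1 h, 3 h, 24 h and 5 d and 0.0153% at 7 d. Of 60 loading differences that were among the 3 largest of their comparison, 43 moved by over 1.5 times when 1 mouse was left out, and 1 changed sign. None of the 60 was called.

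Glucose enters cells through the transporters GLUT1 (Slc2a1) and GLUT3 (Slc2a3). At 5 d in the mid-diaphysis Slc2a1 was at 10.9, 9.09, 6.08, 4.95 and 0 in the control limbs of mice 1 to 5 and at 19.99, 12.5, 5.79, 82.2 and 113.7 in their loaded limbs, a difference of 2.37 ± 1.11 (limma, adjusted p = 0.588). The high values were those of mice 4 and 5, whose loaded libraries are among the 4 that stood apart. Without these libraries the difference was 0.40, and the average over segments went from 0.77 ± 0.56 to 0.12. At 7 d that average was 0.81 ± 0.62, and 0.34 without the 7 libraries. At 24 h the averaged difference of Slc2a1 was -0.96 ± 0.62, with mice at -2.13, -0.80, -2.32 and 1.41, so 1 mouse of 4 ran the other way. It was -0.85 ± 0.46 in the shell, where 3 of 4 mice were lower in the loaded limb and the value ran from -1.44 without mouse 4 to -0.32 without mouse 3. It was -1.02 ± 0.99 in the proximal diaphysis, where levels were at most 8.79 in either limb. Slc2a3 was at 41.3 to 115.7 in control and 22.3 to 56.6 in loaded shells at 3 h (-0.58 ± 0.27, limma, adjusted p = 0.978, and -0.29 without mouse 4), with 2 mice on each side. At 7 d in the mid-diaphysis it was at 93.2, 59.8, 8.36 and 178 in control and 448, 130.7, 104.9 and 42.2 in loaded limbs (1.21 ± 0.72, limma, adjusted p = 0.788), which ran from 0.44 without mouse 3 to 2.29 without mouse 4. It was 0.86 without mouse 1, whose loaded library is marrow-rich.

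Hexokinase traps glucose in the cell as its phosphate, and glucose phosphate isomerase (Gpi1) makes the fructose form. Hk1 was at a median of 273 in control shells, 206 in proximal and 184 in mid-diaphyses, with ranges of 148 to 383, 134 to 372 and 65.6 to 459 that overlapped. Its shell minus mid-diaphysis difference of 0.49 ± 0.19 missed the threshold (limma, adjusted p = 0.111, higher in 15 of 22 mice). Hk2 was at 169.6, 103, 376 and 163 in control and 249, 242, 257 and 831 in loaded proximal diaphyses at 7 d (0.89 ± 0.41, limma, adjusted p = 0.277). The control library of mouse 2, at 103, is among those that stood apart. In mouse 4 the muscle markers summed to 2427 in the control and 53710 in the loaded library. Values without these libraries are not given here. Gpi1 was at 188, 283, 257 and 882 in control and 99.2, 158, 121.4 and 220.2 in loaded mid-diaphyses at 3 h (-1.21 ± 0.52, limma, adjusted p = 1), lower in each of the 4 mice. Control mouse 4, at 882, is the library with the highest muscle marker sum, 287100. Averaged over segments at 3 h Gpi1 differed by -0.45 ± 0.20, again lower in 4 of 4 mice and short of the threshold (limma, adjusted p = 0.547). At 5 d in the mid-diaphysis the sign was the opposite, with control limbs at 170.4, 161, 199, 62.7 and 75.9 and loaded limbs at 224, 109.3, 498, 343 and 315 (1.13 ± 0.47, limma, adjusted p = 0.588). The loaded libraries of mice 4 and 5 stood apart, and without them the difference was 0.39.

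Phosphofructokinase commits the sugar to glycolysis and has a muscle (Pfkm), a liver (Pfkl) and a platelet (Pfkp) form. Aldolase then splits it, as the muscle form Aldoa or the brain form Aldoc. The smallest p-values of the 34 genes over all 15 loading comparisons were those of the 2 muscle forms in the shell at 7 d. Aldoa was at 553, 1607, 2765 and 757 in the control shells of mice 1 to 4 and at 456, 456, 426 and 477 in their loaded shells, a difference of -1.36 ± 0.36 (limma, adjusted p = 0.232). Pfkm was at 31.3, 146, 236 and 60.0 in control and 25.5, 18.4, 32.1 and 16.98 in loaded shells, a difference of -1.95 ± 0.52 (limma, adjusted p = 0.232). Both were lower in the loaded limb of each of the 4 mice, and the Aldoa groups did not overlap, while loaded mouse 3 was above control mouse 1 for Pfkm. The 14 skeletal muscle markers went the same way: their sums were 1807, 10910, 26220 and 4388 in control and 761, 383, 2464 and 1149 in loaded shells, and 0 of the 14 were higher in loaded shells (median difference -3.07). With the mean of that list as a covariate the differences were -0.31 for Aldoa and -0.32 for Pfkm.

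**Figure D2:**
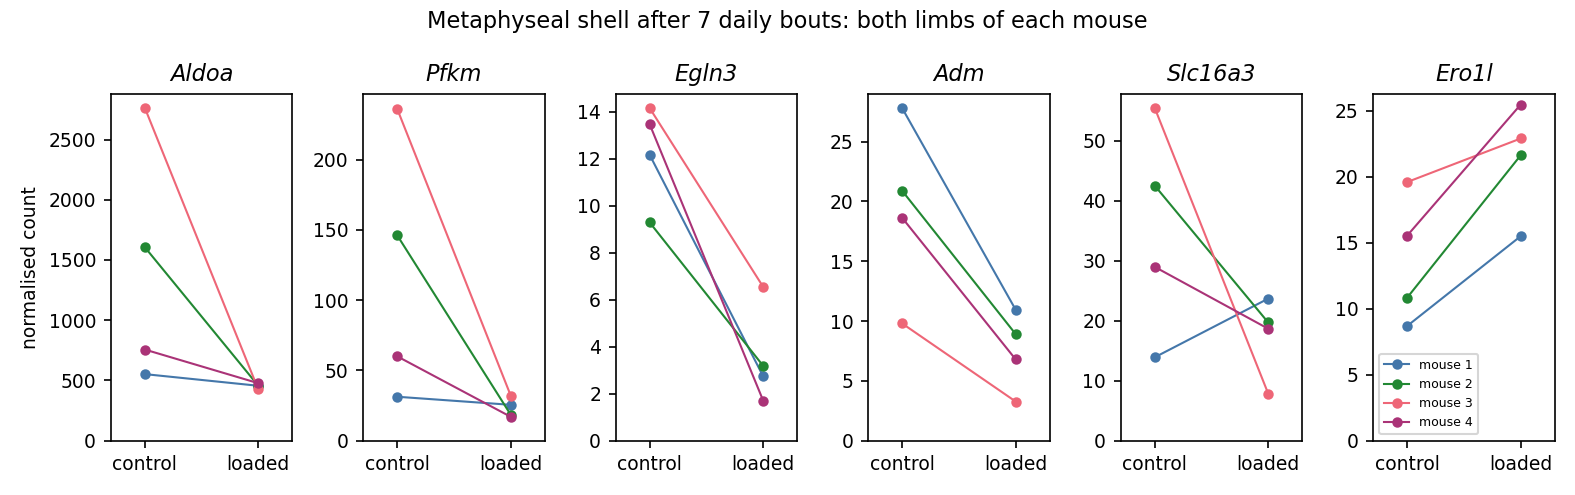
Normalised counts of 6 genes in the metaphyseal shell of both limbs after 7 daily bouts, with a line for each of the 4 mice and axes from 0. Aldoa, Pfkm, Egln3 and Adm slope down in each mouse, Slc16a3 slopes down in 3 of 4 mice, and Ero1l slopes up in each mouse.

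The same muscle forms led in the mid-diaphysis at 3 h. Pfkm was at 45.2, 10.49, 156 and 1135 in control and 17.5, 5.90, 46.7 and 15.4 in loaded limbs (-2.47 ± 0.80, limma, adjusted p = 1), lower in 4 of 4 mice. Aldoa was at 360.4, 177, 1218 and 7684 in control and 197, 217, 292 and 132.4 in loaded limbs (-2.12 ± 0.77, limma, adjusted p = 1), lower in 3 of 4. Without mouse 4 the differences were -1.26 and -0.88. Mouse 4 had the highest control values of both genes and also the highest muscle marker sum of all libraries, 287100 in its control mid-diaphysis against 696 in the loaded one. Pfkm had further negative differences of -1.39 ± 0.77 in the proximal diaphysis at 5 d, -1.30 ± 0.80 in the mid-diaphysis at 24 h and -0.48 ± 0.46 in the shell at 5 d, beside medians of -3.15, -2.68 and -0.61 for the muscle markers in the same comparisons. With the muscle covariate the value for the proximal diaphysis at 5 d turned to 0.35. Averaged over segments at 7 d Pfkm differed by -1.04 ± 0.49 (limma, adjusted p = 0.388), and by -0.05 with the covariate.

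Whether the muscle forms follow muscle marker content mouse by mouse was then asked in a comparison chosen after the data had been seen. The averaged loaded minus control difference of each gene was regressed on that of the 14 muscle markers over the 22 mice, with a term for each time, and a slope of 1 means that a gene moves as much as the markers do. Pfkm had a slope of 0.40 ± 0.08 (limma, adjusted p = 0.00151) and Aldoa 0.32 ± 0.06 (limma, adjusted p = 0.00265), and these were the 2 of 34 members called, beside 1.4% of all genes. Without mouse 4 of the 3 h group the adjusted p of Aldoa was 0.0593. The averaged difference of the muscle markers ran from -4.98 to 2.74 between mice, so the fitted slopes span several doublings of both genes. The enzymes Pgam2 and Eno3, muscle forms of later steps that are not among the 36, had slopes of 1.04 and 0.63. The liver form Pfkl had a slope of -0.24 that missed the threshold (limma, adjusted p = 0.428).

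**Figure D3:**
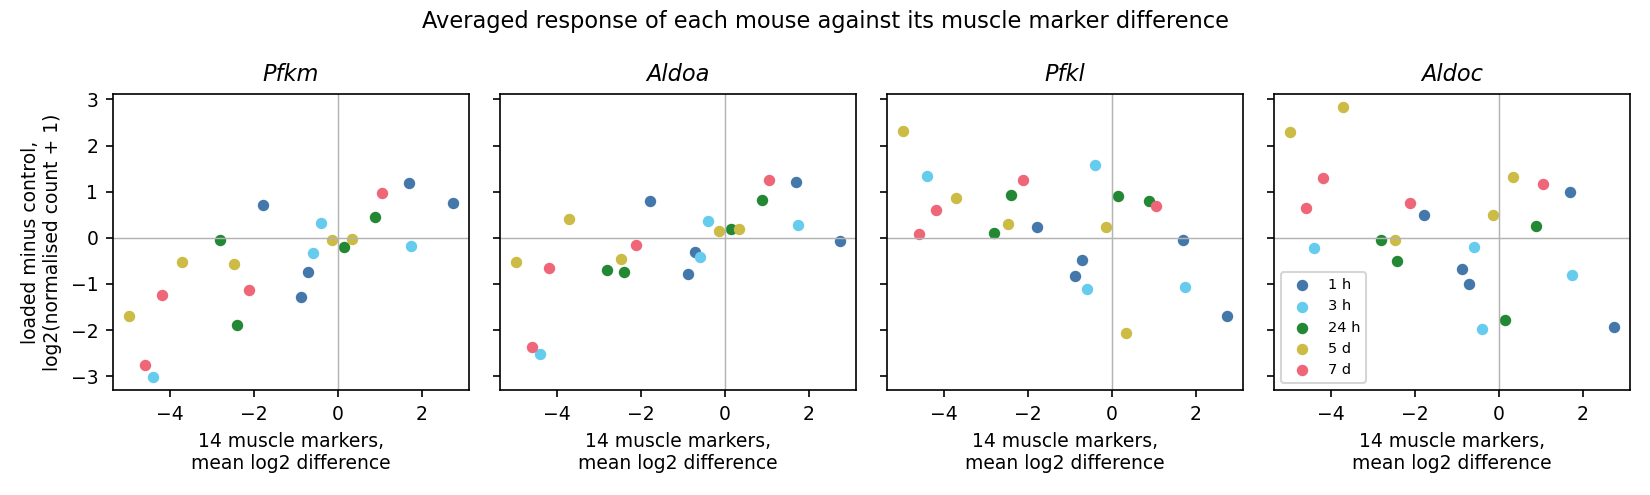
Loaded minus control difference of 4 genes averaged over segments (vertical axis, log2 of normalised count + 1) against the mean difference of 14 skeletal muscle markers (horizontal axis, log2), 1 point per mouse coloured by time (n = 22). Pfkm and Aldoa climb from left to right with slopes of 0.40 and 0.32, and Pfkl does not.

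The liver form of phosphofructokinase had its largest difference in another segment. Pfkl was at 0, 0.577, 21.1 and 20.7 in control and 24.1, 17.2, 39.8 and 23.7 in loaded proximal diaphyses at 7 d (2.31 ± 0.79, limma, adjusted p = 0.185), higher in 4 of 4 mice. The control library of mouse 2, at 0.577, is among the 7 that stood apart, and without them the difference was 1.91. At 24 h Pfkl differed by 0.84 ± 0.79 in the proximal diaphysis and by 0.68 ± 0.50 on average. The proximal value was 0.20 without mouse 4 and 0.14 with sample weights. At 1 h Pfkl differed in the mid-diaphysis by -1.17 ± 0.99, where the 2 libraries that stood apart held its highest values, 119.5 and 98.6. In control limbs it had medians of 16.1 in shells and 10.7 in proximal diaphyses (0.91 ± 0.34, limma, adjusted p = 0.104, higher in 18 of 22 mice).

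Among the members Aldoc gave the smallest p of the averaged responses. Its averaged differences were 0.49, -0.04, 1.32, 2.84 and 2.29 in mice 1 to 5 at 5 d, a mean of 1.38 ± 0.43 (limma, adjusted p = 0.468), and 0.75, 1.304, 0.64 and 1.16 at 7 d, a mean of 0.96 ± 0.49 (limma, adjusted p = 0.423) that was 0.63 without the 7 libraries. At 3 h they were -1.97, -0.81, -0.19 and -0.21. Loaded limbs were thus higher in 8 of 9 mice after repeated bouts and lower in 4 of 4 at 3 h, but the test of the difference between times missed the threshold (limma F test, adjusted p = 0.487). The largest values were those of the mid-diaphysis, where Aldoc was at 14.5, 13.6, 0, 4.95 and 0 in control and 15.6, 1.79, 69.5, 107.2 and 74.5 in loaded limbs at 5 d (2.85 ± 1.17, limma, adjusted p = 0.588). Mice 4 and 5 are those whose loaded libraries stood apart, and without them the segment difference was 1.28 and the average 0.85. At 7 d the mid-diaphysis was at 0, 8.08, 0 and 0 in control and 3.10, 54.5, 6.29 and 8.43 in loaded limbs (2.69 ± 1.31, limma, adjusted p = 0.725). In the shell Aldoc differed by -1.07 ± 0.56 at 3 h and -0.52 ± 0.56 at 24 h, and control shells had a higher median, 10.9, than control mid-diaphyses, 5.60 (1.09 ± 0.42, limma, adjusted p = 0.107).

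The later part of the pathway runs from triose phosphate isomerase (Tpi1) through Gapdh, Pgk1, Pgam1 and Eno1 to pyruvate kinase (Pkm), and lactate dehydrogenase (Ldha) turns pyruvate into lactate. Several of these genes are read with caution in 3′ counts, since the last 300 bases of Gapdh share runs of 50 bases with 172 other genes, 168 of them pseudogenes, and those of Ldha with 13, Eno1 with 7, Aldoa with 6 and Pkm with 5. Gapdh was at 25.4, 24.98, 34.4, 56.1 and 1.90 in control and 53.3, 28.7, 11.6, 370 and 242 in loaded mid-diaphyses at 5 d (1.76 ± 1.00, limma, adjusted p = 0.618). The last pair of loaded values came from libraries that stood apart. Without them the difference was -0.09, and the average over segments went from 0.71 ± 0.52 to 0.10. Pkm was at 249, 270.0, 545 and 376 in control and 284, 221, 145 and 294 in loaded shells at 7 d (-0.59 ± 0.25, limma, adjusted p = 0.597), with mouse 1 on the other side.

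Pgk1 and Pgam1 were sparse, with medians of 3 and 4 reads per library. Pgam1 was at 4.09, 5.67, 8.32, 1.19 and 5.81 in control and 2.82, 0, 2.51, 2.42 and 0 in loaded shells at 1 h (-1.34 ± 0.52, limma, adjusted p = 1). Its averaged difference at 3 h was -1.09 ± 0.55, of which the control library of mouse 3 in the proximal diaphysis, at 57.4, made a part. Without the 7 libraries it was -0.78, and the segment value went from -1.31 to -0.50. It also differed by -1.06 ± 0.84 in the proximal diaphysis at 5 d and by 1.22 ± 1.07 in the mid-diaphysis at 1 h, where the value was 2.21 without the libraries that stood apart, 0.61 without mouse 1 and 0.54 with a pseudocount of 5. Pgk1 was at 0, 13.8, 0 and 8.17 in control and 11.03, 14.1, 18.3 and 10.52 in loaded mid-diaphyses at 24 h (2.05 ± 1.31, limma, adjusted p = 1). Its differences at 5 d were 0.74 ± 0.51 in shells and 1.10 ± 0.68 in proximal diaphyses, where 1 loaded library, of mouse 4, was at 63.7. Without that mouse the proximal value was 0.28.

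Lactate leaves the cell through the transporter MCT4 (Slc16a3), Pdk1 closes the entry of pyruvate into mitochondria, and Pfkfb3 and Pfkfb4 make the sugar bisphosphate that drives phosphofructokinase. Slc16a3 was at 47.96, 46.04, 96.8 and 679 in control and 19.5, 32.5, 23.4 and 24.6 in loaded mid-diaphyses at 3 h (-2.12 ± 0.80, limma, adjusted p = 1). Control mouse 4, at 679, is the library with the highest muscle marker sum, and without that mouse the difference was -1.25. Slc16a3 was lower in 4 of 4 mice there, and in 3 of 4 mice in the shell at 7 d, where it was at 13.9, 42.6, 55.5 and 28.99 in control and 23.7, 19.7, 7.85 and 18.7 in loaded limbs (-0.91 ± 0.42, limma, adjusted p = 0.646). In control limbs its medians were 54.0 in shells and 36.5 in proximal diaphyses (0.77 ± 0.26, limma, adjusted p = 0.0738, higher in 18 of 22 mice). Pdk1 was at 19.1, 14.7, 21.8 and 23.8 in control and 32.8, 37.5, 50.4 and 18.7 in loaded shells at 7 d (0.72 ± 0.28, limma, adjusted p = 0.527). Pfkfb3 was at 86.0 to 116.3 in control and 75.0, 67.5, 87.3 and 35.3 in loaded shells at 3 h (-0.68 ± 0.24, limma, adjusted p = 0.978), lower in 3 of 4 mice. In the proximal diaphysis at 7 d it was at 32.4, 0, 60.5 and 82.7 in control and 38.7, 80.4, 88.1 and 134 in loaded limbs (1.95 ± 0.67, limma, adjusted p = 0.188), where the control library of mouse 2 at 0 is among the 7 that stood apart. Without them the difference was 0.49. Pfkfb4 had its largest differences at 1 h, with -0.47 ± 0.27 in the shell, -1.25 ± 0.74 in the mid-diaphysis and -0.59 ± 0.35 on average (limma, adjusted p of at least 0.999). The mid-diaphysis value was -2.10 without the libraries that stood apart and -0.30 without mouse 1, which alone was at -5.05. The average without that mouse was -0.16.

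The 2 alpha subunits of the hypoxia-inducible factors showed no called response in any segment. Hif1a had averaged differences of -0.17 ± 0.27 at 1 h, 0.41 ± 0.30 at 3 h, 0.35 ± 0.30 at 24 h, 0.30 ± 0.27 at 5 d and -0.01 ± 0.30 at 7 d. At 3 h each of the 4 mice was higher in the loaded limb, by 0.25, 0.05, 0.50 and 0.85, and the 95% interval of that mean ran from -0.20 to 1.02. In the shell at 5 d Hif1a was at 120.8, 119.3, 135, 79.6 and 51.2 in control and 165, 182, 266, 56.4 and 97.5 in loaded limbs (0.49 ± 0.24, limma, adjusted p = 1), higher in 4 of 5 mice. Epas1 had averaged differences between -0.25 and 0.05 at the 5 times, with SE of 0.25 to 0.28, and its 95% intervals together spanned -0.82 to 0.62. Since these factors are regulated mainly through protein stability, their messenger level is only part of their control. Between control segments Hif1a had medians of 95.5 in shells, 88.5 in proximal and 81.7 in mid-diaphyses and differences of 0.03 to 0.06 with SE of 0.12 to 0.22, and Epas1 had medians of 126, 157 and 145, with -0.32 ± 0.14 for shell minus proximal diaphysis (limma, adjusted p = 0.145).

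The hydroxylase EGLN1 sets HIF levels at normal oxygen, and Egln3 is a further hydroxylase gene that HIF itself raises. Egln3 was at 12.2, 9.29, 14.2 and 13.5 in control and 2.73, 3.18, 6.54 and 1.70 in loaded shells at 7 d (-1.64 ± 0.44, limma, adjusted p = 0.244). The groups did not overlap. With the muscle covariate the difference was -0.80. At 3 h in the mid-diaphysis Egln3 was at 8.22, 5.25, 20.1 and 79.8 in control and 0, 0, 7.01 and 0 in loaded limbs (-3.40 ± 1.24, limma, adjusted p = 1). Control mouse 4, at 79.8, is the library with the highest muscle marker sum, and without that mouse the difference was -2.42. On average over segments at 3 h it was -1.01 ± 0.53, and -0.55 without mouse 4. Differences of the opposite sign were 0.55 ± 0.44 in the shell at 24 h, 0.84 ± 0.93 in the proximal diaphysis at 1 h and 0.63 ± 0.47 on average at 1 h, none called. The shell value rested on mouse 3, at 2.51, and without that mouse it turned to -0.11. Without the 3 marrow-rich libraries the last 2 were 0.27 and 0.33. Egln1 was at 99.2, 38.9, 0 and 73.7 in control and 91.4, 46.3, 83.2 and 72.7 in loaded proximal diaphyses at 3 h (1.63 ± 0.68, limma, adjusted p = 0.455), a value carried by the control library of mouse 3, and 0.04 without the 7 libraries.

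Among genes that HIF is known to raise, Ndrg1 and Ddit4 differed between segments of the control limb. Ndrg1, on the minus strand of chromosome 15 from 66929318 to 66969640 (mm10), encodes a protein of stress and differentiation. Its level was 120.2 at the lowest, 159 at the median and 239 at the highest in the 22 control shells, 130.9, 269 and 702 in the proximal diaphyses, and 71.3, 259 and 464 in the mid-diaphyses. The shell ranged least, and its highest mouse lay below the median of either other segment. Ndrg1 was lower in the shell than in the proximal diaphysis by -0.75 ± 0.13 (limma, adjusted p = 0.000888, lower in 20 of 22 mice) and lower than in the mid-diaphysis by -0.51 ± 0.16 (limma, adjusted p = 0.0429, lower in 17 of 22). In the first comparison 2 of 34 members were called, beside 6.51% of all genes, and in the second 1 of 34 beside 7.44%, so both shares lie near or below the background. Between proximal and mid-diaphysis 0 of 34 were called, beside 0.199% of all genes. Within the 5 groups of mice the mean shell minus proximal difference was -0.86 at 1 h, -0.94 at 3 h, -0.53 at 24 h, -0.54 at 5 d and -0.93 at 7 d. The shell minus mid-diaphysis difference was -0.04 at 1 h and -0.86 to -0.44 at the other times.

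**Figure D4:**
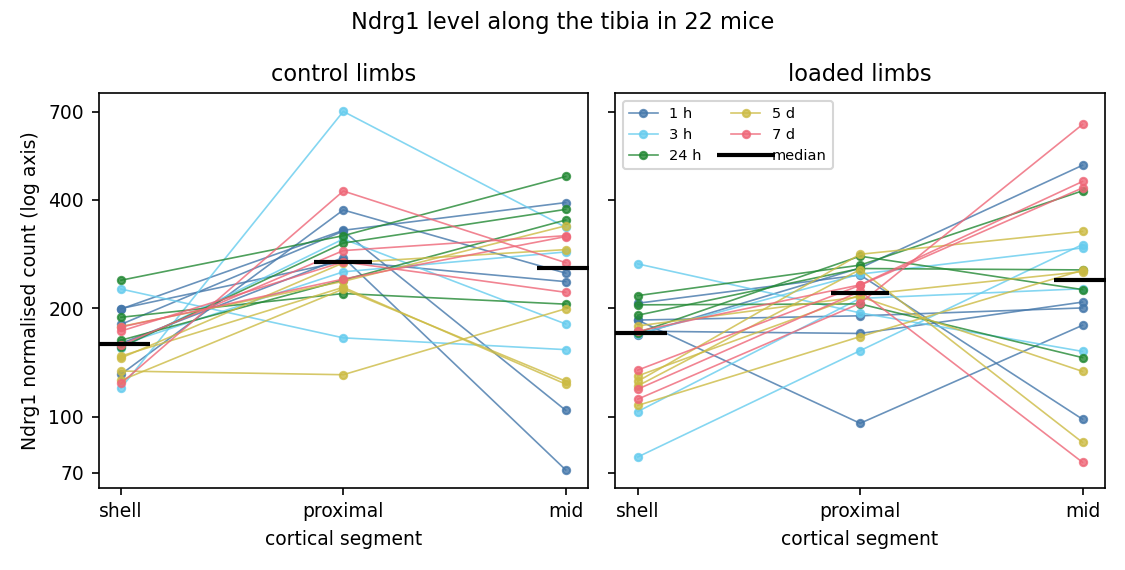
Ndrg1 normalised count (log axis) in the 3 segments of the control limb (left) and the loaded limb (right), with a line per mouse coloured by time and black bars for the medians (n = 22). Control medians are 159 for shells, 269 for proximal and 259 for mid-diaphyses.

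The same comparison in loaded limbs, added after the data had been seen, gave Ndrg1 medians of 170.4, 220.2 and 239.6 from shell to mid-diaphysis. It was lower in the shell than in the proximal diaphysis by -0.47 ± 0.11 (limma, adjusted p = 0.0207, lower in 19 of 22 mice), with a mean of 0.01 at 1 h and -0.77 to -0.35 at the other times. The shell minus mid-diaphysis difference of -0.58 ± 0.20 missed the threshold (limma, adjusted p = 0.0650). Control and loaded limbs of a mouse are not independent, so this is the same animals measured again. Egln1 was the other member called in loaded limbs, at medians of 50.4 in shells and 67.4 in proximal diaphyses (-0.51 ± 0.14, limma, adjusted p = 0.0350, lower in 16 of 22). That call was lost without the filter on low values (adjusted p = 0.0528) and without mouse 1 or 3 at 1 h, 3 or 4 at 3 h, 4 at 24 h, 5 at 5 d or 4 at 7 d (adjusted p up to 0.0699). These 2 of 34 stand beside 3.34% of all genes, and 0 of 34 were called for shell minus mid-diaphysis beside 10.6% and for proximal minus mid-diaphysis beside 1.51%. Against its own control limb Ndrg1 was lower in the loaded proximal diaphysis of 5 of 5 mice at 1 h, at 329, 269.9, 327, 374 and 276 in control and 259, 247, 191, 170.3 and 96.02 in loaded limbs (-0.78 ± 0.29, limma, adjusted p = 0.999). The lowest value, of mouse 5, came from a marrow-rich library, and without such libraries the difference was -0.59.

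The shell minus proximal difference of Ndrg1 kept its call with each of the 22 mice left out, at adjusted p-values of 1.38e-04 to 0.00226. With the mean of the erythroid markers as a covariate it was -0.36 (adjusted p = 0.372). Erythroid markers differed between these segments, with 2 of the 5 tested genes higher in the shell and a median of 0.55 over the list. Other marker sums differed as well, with medians in control shells and proximal diaphyses of 1046 and 1644 for osteocytes, 130600 and 192500 for osteoblasts, and 4334 and 6852 for muscle. They were 9120 and 6502 for osteoclasts, 820.5 and 548.6 for endothelium, 1817 and 1147 for chondrocytes, and 27220 and 22080 for neutrophils. With the muscle covariate the difference was -0.81, and the part of the other lists was not tested. The shell minus mid-diaphysis call held in 9 of 22 fits with a mouse left out. Leaving out mouse 1 or 4 at 1 h, 1 or 3 at 3 h, 1, 3 or 4 at 24 h, 1, 2 or 4 at 5 d, or 1, 2 or 3 at 7 d gave adjusted p-values up to 0.0826, and it was also lost with upper-quartile scaling (adjusted p = 0.0802), the erythroid covariate (0.0513), edgeR (0.0694) and no pairing by mouse (0.0531).

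Ddit4 encodes REDD1, an inhibitor of the growth regulator mTORC1 that many stresses raise. Control levels ran from 70.4 over a median of 269 to 2894 in the shell, from 68.5 over 379 to 3408 in the proximal diaphysis and from 47.7 over 259 to 2184 in the mid-diaphysis. Within a mouse it was lower in the shell than in the proximal diaphysis by -0.46 ± 0.13 (limma, adjusted p = 0.0364, lower in 19 of 22 mice). The call held in 10 of 22 fits with a mouse left out, and without mouse 4 or 5 at 1 h, 1, 3 or 4 at 3 h, 1, 3 or 4 at 24 h, 2 or 3 at 5 d, or 3 or 4 at 7 d the adjusted p was 0.0511 to 0.0683. With the erythroid covariate the difference was -0.22 (adjusted p = 0.691), and the call was also lost without the filter on low values (0.0532), with upper-quartile scaling (0.0526), with one spread for all segments (0.248) and without the pairing by mouse (0.572). In loaded limbs it was -0.35 ± 0.13 (limma, adjusted p = 0.125), lower in 19 of 22 mice.

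The highest Ddit4 levels were those of the 1 h group. In control shells it was at 2894, 2775, 2649, 668 and 755 in mice 1 to 5 of the 1 h group, and at 70.4 to 479 in the 17 mice of the other groups. In control proximal diaphyses the 1 h mice were at 3408, 2807, 2703, 1480 and 1721 and the others at 68.5 to 727. The groups did not overlap in these segments. In control mid-diaphyses they did, with 2184, 2128, 353, 926 and 83.3 at 1 h against 47.7 to 1106. The 353 of mouse 3 is from a library that stood apart and the 83.3 of mouse 5 from a marrow-rich one. The 926 of mouse 4, from neither, also lay within the later range. Loaded shells did not overlap, at 1745, 1776, 2066, 882 and 1021 at 1 h against at most 380.5 later. Loaded proximal diaphyses overlapped, at 229 to 2848 at 1 h against 115.5 to 409 later, through the marrow-rich library of mouse 5.

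Comparing the time groups was not part of the study's paired design and was added after the data had been seen. On levels averaged over the 3 segments of a mouse, Ddit4 at 1 h stood above the mean of the other 4 times by 2.42 ± 0.35 in control limbs (limma, adjusted p = 5.16e-04) and by 2.76 ± 0.27 in loaded limbs (limma, adjusted p = 3.28e-07). Both calls held with each of the 22 mice left out. These are comparisons between different animals, and the groups also differed in depth, with medians of 1301000, 2004000, 2168000, 1448000 and 1665000 reads per library from 1 h to 7 d. They differed more in the share of the ribosomal RNA gene Rn45s, with medians of 2.89%, 22.3%, 23.1%, 7.91% and 3.12% of reads, and the part of depth and of this share in the result was not tested. Time after loading and anything else that set the groups of mice apart cannot be told apart. Against its own control limb, Ddit4 at 1 h differed by -0.81, -1.11, 0.96, 0.17 and 0.71 on average in the 5 mice, with no shared sign. The averages of mice 2 and 3 include mid-diaphysis libraries that stood apart, of the loaded and the control limb in turn. That of mouse 5 includes its marrow-rich libraries, of the loaded proximal diaphysis and the control mid-diaphysis. Averages without these libraries are not given here, so the mixed signs are not read further. In the proximal diaphysis Ddit4 was at 2240, 2848, 1917, 1289 and 229 in loaded limbs at 1 h (-0.84 ± 0.38, limma, adjusted p = 0.999), lower in 4 of 5 mice. Mouse 5, at 229, was far below the rest. In its loaded library neutrophil markers summed to 70260, against 16300 in the control limb, and osteoblast markers to 40890, against 283300. Without the marrow-rich libraries the difference was -0.32.

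**Figure D5:**
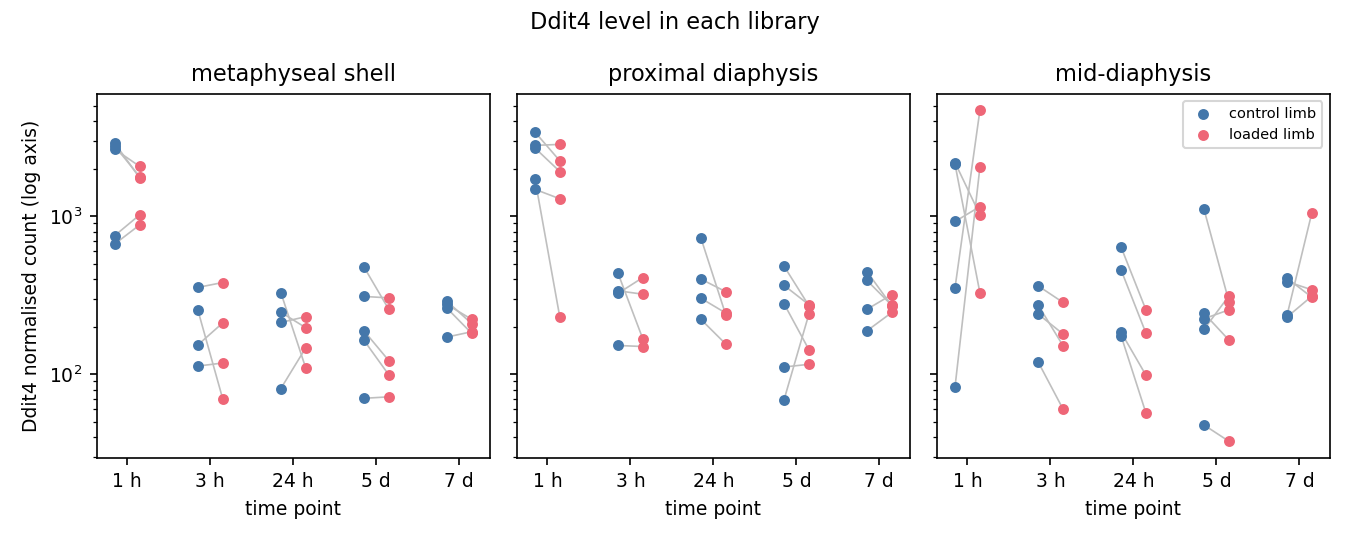
Ddit4 normalised count (log axis) in each library by segment and time, control limbs in blue and loaded limbs in red, joined within a mouse (n = 4 or 5 mice per time). The 1 h libraries lie between 668 and 2894 in control shells, above all later control shells, and overlap with later times in the mid-diaphysis.

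At 24 h Ddit4 was lower in the loaded limb of each of the 4 mice on average, by -0.49, -0.51, -1.50 and -0.43 (-0.73 ± 0.28, limma, adjusted p = 1). The mid-diaphysis contributed most, with 458, 185, 639 and 176 in control and 182, 98.6, 256 and 56.8 in loaded limbs (-1.29 ± 0.70). In the proximal diaphysis loaded limbs were also lower in 4 of 4 mice (-0.68 ± 0.43), and in the shell 2 of 4 were.

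Other members differed between the time groups as well. An F test over the 5 groups called 5 of 34 members in control limbs (Ddit4, Slc16a3, Gapdh, Gpi1 and Pgk1) beside 21.4% of all genes, and 7 of 34 in loaded limbs (Ddit4, Aldoc, Hif1a, Ero1l, Hk2, Gapdh and Pgk1) beside 18.5%. For 1 h against the other times 3 of 34 were called in control limbs, beside 1.46% of all genes, and 3 of 34 in loaded limbs, beside 1.38%. Pgk1, at a mean log2 level of 3.63 at 1 h and 0.72 to 3.13 later, was higher by 1.80 ± 0.36 in control limbs (limma, adjusted p = 0.00796). Gapdh, at a mean log2 level of 5.855 at 1 h and 3.756 to 5.451 later, was higher by 1.46 ± 0.38 in control limbs (limma, adjusted p = 0.0447). That call held under 2 of 8 other settings and in 9 of 22 fits with a mouse left out, where the adjusted p reached 0.162. The fits that lost it were those without mouse 2, 3, 4 or 5 at 1 h, 1, 2 or 3 at 3 h, 1, 3 or 4 at 24 h, 1 at 5 d, or 2 or 4 at 7 d. In loaded limbs Hk2 at 1 h was higher by 0.95 ± 0.22 (limma, adjusted p = 0.0309), and lost its call without the filter (0.0699) and without mouse 3, 4 or 5 at 1 h (adjusted p up to 0.0748). Its mean log2 level there was 7.64 at 1 h and 7.61 at 7 d, against 6.04 to 6.59 at the times between. Hif1a was lower there by -0.79 ± 0.19 (limma, adjusted p = 0.0330), and lost its call without mouse 3, 4 or 5 at 1 h, 1 at 3 h or 2 at 24 h (adjusted p up to 0.0949). Loaded Hif1a was at a mean log2 level of 6.01 at 1 h and 6.16 at 7 d, against 6.77 to 7.31 at the times between. For both genes 1 h thus lay near 7 d.

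Adrenomedullin (Adm), a peptide that widens vessels, was at 27.8, 20.9, 9.80 and 18.6 in control and 10.9, 8.90, 3.27 and 6.79 in loaded shells at 7 d (-1.27 ± 0.36, limma, adjusted p = 0.281). It was lower in 4 of 4 mice. In the mid-diaphysis at 3 h it was at 20.6, 17.5, 31.8 and 17.3 in control and 7.78, 1.48, 0 and 13.9 in loaded limbs (-2.38 ± 1.07, limma, adjusted p = 1), where the groups did not overlap. At 24 h in the proximal diaphysis the difference was 1.02 ± 0.83, with mice on both sides. In control limbs Adm had medians of 19.2 in shells and 12.6 in proximal diaphyses, and the difference of 1.02 ± 0.33 lay just outside the threshold (limma, adjusted p = 0.0559, higher in 16 of 22 mice).

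Promoters of the members were examined because many of them are known targets of the same factors, and those of Ddit4, called between segments, and Adm, next to the threshold, are shown. They come from the RefSeq table of build GRCm38.p6, cover 250 bases before to 50 after the start, and are written 5′ to 3′ on the strand of the gene, with capitals for ACGTG or GCGTG or their reverse complements. Ddit4 lies at chr10:59951721-59952020 on the minus strand and Adm at chr7:110627407-110627706 on the plus strand.
Ddit4: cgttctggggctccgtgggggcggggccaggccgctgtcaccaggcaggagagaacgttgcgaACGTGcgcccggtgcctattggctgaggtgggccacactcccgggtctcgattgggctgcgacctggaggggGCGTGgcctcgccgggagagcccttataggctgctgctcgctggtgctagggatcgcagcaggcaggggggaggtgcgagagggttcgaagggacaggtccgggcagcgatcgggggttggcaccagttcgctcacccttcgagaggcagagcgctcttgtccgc
Adm: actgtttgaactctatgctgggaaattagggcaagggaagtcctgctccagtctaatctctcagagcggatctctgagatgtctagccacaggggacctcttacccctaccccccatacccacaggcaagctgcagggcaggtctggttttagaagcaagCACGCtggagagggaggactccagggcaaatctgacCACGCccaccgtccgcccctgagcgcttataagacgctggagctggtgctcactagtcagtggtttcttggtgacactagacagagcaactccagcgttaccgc

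In Ddit4 ACGTG begins 187 bases before the start and GCGTG nearer to it, both on the strand of the gene. In Adm GCGTG lies on the opposite strand at 90 and 54 bases before the start. Among the 32 members with an entry, 30 (93.75%) held ACGTG or GCGTG on either strand in at least 1 promoter, against 46.73% of the 27025 genes of the table, and 23 (71.88%) held ACGTG, against 21.78%. Counted by start, it was 39 of 49 (79.59%) against 43.77% of 32851, where CACGTG counts on both strands. The member promoters were also richer in G and C, at a median of 63.0% against 52.67%, and in CG pairs, at 21 against 7 per promoter, and both motifs contain a CG pair. Slc2a3, Bnip3l, Epas1 and Ndrg1 had no entry.

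The remaining known targets gave no called difference. Ero1l, an oxidase of the endoplasmic reticulum, was at 8.69, 10.8, 19.6 and 15.5 in control and 15.5, 21.6, 22.9 and 25.5 in loaded shells at 7 d (0.65 ± 0.23, limma, adjusted p = 0.460), higher in 4 of 4 mice. In the proximal diaphysis of the same mice it was the other way, at 11.9, 59.4, 22.4 and 24.8 in control and 2.09, 22.96, 9.19 and 10.2 in loaded limbs (-1.45 ± 0.62, limma, adjusted p = 0.248), lower in 4 of 4. The test for a difference between segments at 7 d gave an adjusted p of 0.415 (limma). Ero1l further differed by 1.40 ± 0.62 in the proximal diaphysis at 3 h, 0.20 without the 7 libraries, and by -1.46 ± 0.93 in the mid-diaphysis at 7 d, -0.10 without them. Mxi1, an antagonist of Myc, was at 42.6, 0, 79.0 and 53.8 in control and 97.3, 56.4, 75.1 and 59.2 in loaded proximal diaphyses at 7 d (1.77 ± 0.65, limma, adjusted p = 0.204), and the difference was 0.41 without the library at 0. The mitophagy receptor Bnip3l was at 73.7, 64.7, 68.2, 131.2 and 153 in control and 66.2, 50.6, 66.4, 63.8 and 92.7 in loaded shells at 1 h (-0.46 ± 0.21, limma, adjusted p = 1), lower in 5 of 5 mice. Ankrd37 was at most 1.94 in shells and 3.71 in proximal diaphyses at 1 h, too low for a fold. At 7 d it was at 1.74, 0, 0 and 2.07 in control and 0.911, 1.91, 3.27 and 6.79 in loaded shells (1.11 ± 0.53, limma, adjusted p = 0.648). Its averaged difference at 3 h, where levels were at most 13.6, was 0.94 ± 0.52, and it ran from 0.52 without mouse 2 to 1.64 without mouse 4. Higd1a, a mitochondrial protein, had medians of 146 in control shells and 91.6 in mid-diaphyses (0.52 ± 0.18, limma, adjusted p = 0.0726, higher in 15 of 22 mice). Between control segments the largest differences not yet given were 0.82 ± 0.35 for Pgam1 and 0.59 ± 0.37 for Adm in shell minus mid-diaphysis, and 0.64 ± 0.42 for Pgam1, -0.60 ± 0.27 for Pfkfb4 and -0.55 ± 0.27 for Pfkfb3 in proximal minus mid-diaphysis, none called. Pfkp, Tpi1, Ldha, Bnip3 and Kdm3a, a histone demethylase gene, had no p under 0.05 in any of the 15 loading comparisons or the 3 control comparisons.

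Slopes on the other marker lists were taken in the same added way. On the erythroid list Hk1, the hexokinase of red cells, was the 1 of 34 members called (0.59 ± 0.15, limma, adjusted p = 0.0345), beside 2.12% of all genes. On the neutrophil list Hk1 (0.67 ± 0.17, limma, adjusted p = 0.0217) and Bnip3 (-1.30 ± 0.37, limma, adjusted p = 0.0482) were called, 2 of 34 beside 3.26%, and on the chondrocyte list 0 of 34 were, beside 0.00766%. Without the 4 libraries that stood apart the slopes of Hk1 were 0.44 and 0.36, with adjusted p-values of 0.693 and 0.639. Single mice also decided them: without mouse 2 or 3 at 1 h the adjusted p of the neutrophil slope reached 0.246, and the erythroid slope lost its call without these or mouse 2 or 4 at 3 h, 2 at 5 d or 3 at 7 d (adjusted p up to 0.234). The Bnip3 slope held in 6 of 22 such fits, those without mouse 2 or 3 at 3 h, 4 at 24 h, 3 at 5 d or 1 or 3 at 7 d, and its adjusted p otherwise reached 0.259. It also held under 2 of 7 other settings, where the adjusted p reached 0.451.

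Other genes of the pathways were taken from a list of 48, of which 46 were tested. Loading called 0 of the 46 in any comparison. Of the genes reported here, 4 were higher in the control shell than in the mid-diaphysis (Pgm1, Plod1, Hmox1 and Stc1) and 3 lower (Pdha1, Arnt and Cited2), beside the 7.44% of all genes called in either direction. Hmox1, the heme-degrading enzyme, was at 163 ± 112.5 (SD, n = 22) in shells and 90.8 ± 81.4 in mid-diaphyses (0.95 ± 0.19, limma, adjusted p = 0.00217). Stc1, a secreted glycoprotein, was higher by 1.71 ± 0.36 (limma, adjusted p = 0.00289), and Pdha1, a subunit of pyruvate dehydrogenase, was lower by -0.62 ± 0.15 (limma, adjusted p = 0.0112). Counted in the same way between shell and proximal diaphysis, 1 was higher (Hmox1) and 4 lower (Arnt, P4ha1, P4ha2 and Loxl2), beside 6.51% of all genes. Between proximal and mid-diaphysis 0 were called. Arnt, the constant partner of both HIF alpha subunits, was at 32.5 ± 15.1 in shells, 56.7 ± 31.4 in proximal and 53.4 ± 23.5 in mid-diaphyses (SD, n = 22), lower in the shell by -0.71 ± 0.20 and -0.71 ± 0.22 (limma, adjusted p = 0.0369 and 0.0429). All genes had medians of 0.17 for either shell difference. The lower values of Arnt and Ndrg1 in both, and of Ddit4 against the proximal diaphysis, ran against that shift of the table. Against the mid-diaphysis Ddit4 differed by 0.03 ± 0.22. With upper-quartile scaling the Ddit4 call and the Ndrg1 call against the mid-diaphysis were lost, as given above.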

How the data were processed

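The authors deposited normalised counts per gene, a signal value made by dividing gene counts by a size factor per library. Per the submitters' processing notes the tools were STAR, FastQC and DESeq2 with the mm10 build; the versions, the counting tool, its strand setting and the annotation are not given in the sources used here. Every value above 0 was a whole multiple of 1 read within a tolerance of 0.02, so reads per library were recovered. Their number, 290325 to 5410458, sets the precision of low values. No pair of libraries was identical. Of 23412 rows, 27 carried a symbol turned into a date and 4897 were at 0 in every library. The ribosomal RNA gene Rn45s held medians of 3.02% of reads in shells, 5.57% in proximal diaphyses and 13.3% in mid-diaphyses.

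Values were taken as log2(value + 1) for the 13050 genes at 10 or above in 4 or more libraries. A fold change on that scale understates changes of low genes. Libraries of 1 mouse were paired, since the labels give both limbs and all segments of a numbered mouse. Differences within mice were tested with limma 3.58.1 in R 4.3.3, 1 fit per segment for loading at the 5 times, 1 for the average of the segments and 1 per pair of segments in control limbs, with Benjamini-Hochberg adjustment over all genes and a threshold of 0.05. The scripts were tested on simulated data. Since the values are normalised, counts tests (edgeR 4.0.16 and DESeq2 1.42.0 on recovered reads) served as alternatives, next to other pseudocounts, filters, scalings, weights, covariates, left-out libraries and left-out mice.

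The members and lists were chosen with earlier results of these data known. Values in full are given for members past the threshold, for the 3 members with the largest absolute difference in each comparison, and for Hif1a and Epas1; other values given in full, such as those of Gpi1, Hk2, Pkm, Pdk1 and Bnip3l, were chosen after they were seen. The result of 1 other pathway gene is not reported here. The segment comparisons in loaded limbs, the time groups, the slopes on marker lists and the values without 3 marrow-rich libraries were added after seeing the data. Promoters (250 bases before to 50 after a gene's start) are from RefSeq. Gene positions are from GENCODE on mm10. Pfkm, Pkm, Slc2a1, Slc2a3, Pfkfb3, Hif1a and Epas1 overlap another gene on the same strand, so their reads could be assigned to either.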

Additional observations from a re-analysis of the deposited data

Results flagged for a closer look

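In 8 of 60 groups of mice 1 mouse lay far from the rest by a test of the gap to its nearest neighbour. The 60 were the 3 largest differences of each loading comparison, which a single stray mouse can enlarge, and the averages reuse the segments. The rate of 1 in 20 for unselected groups therefore does not apply to them. All values here are loaded minus control on the log2 scale. Egln3 in the shell at 24 h was 2.51 in mouse 3 and -0.16 to 0.00 in the other mice. Pfkm in the shell at 5 d was 2.05 in mouse 3 and -1.54 to -0.54 in the others; the skeletal muscle sum of that mouse was 676 in the control and 10780 in the loaded shell, and its part in the value was not tested. Ddit4 in the proximal diaphysis at 1 h was -2.90 in mouse 5 and -0.61 to 0.02 in the others; neutrophil markers of that mouse summed to 16300 in the control and 70260 in the loaded library and erythroid markers to 912 and 5696, and their part was not tested. Egln1 in the proximal diaphysis at 3 h was 6.40 in mouse 3 (others -0.12 to 0.25), and Pfkfb3 there at 7 d was 6.35 in mouse 2 (others 0.25 to 0.69); each gene was listed at 0 in that mouse's control library, and both libraries are among the 7 that stood apart.

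Averaged over segments, Pgam1 at 3 h was -0.14 in mouse 4 and -1.50 to -1.30 in the others. Ddit4 at 24 h averaged -1.50 in mouse 3 against -0.51 to -0.43. Pfkl at 24 h averaged 0.10 in mouse 1 against 0.79 to 0.92. Aldoc, averaged over segments, was higher in the loaded limb of every mouse at 7 d (mean 0.96) and lower in every mouse at 3 h (mean -0.80). These are different animals. It was the only such pair of times among 48 genes and segments compared. An F test over the 5 times gave an adjusted p of 0.487 (limma).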

How the results depend on the processing

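Over 91 named values, the 15 other settings and 22 fits with a mouse left out gave 3063 values with the direction and call as reported. Another 22 changed sign, 21 gained a call, and the rest lost one. For loading by segment, 0 members were called in all settings but 2: one fit with one spread called 2 (Mxi1 and Pfkfb3 in the proximal diaphysis at 7 d) and DESeq2 called 1 (Pfkm in the shell at 7 d); without any 1 mouse the count was 0. For the averages over segments, where DESeq2 was not run, and for proximal minus mid-diaphysis it was 0 throughout. Scaling moved the median of all genes by under 0.1.

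Shell minus mid-diaphysis called 1 member (Ndrg1) as reported. The count was 0 with the erythroid covariate, edgeR or no replicate block, 2 without the filter, without 4 or 7 libraries, in one fit with one spread or with DESeq2, 3 with sample weights and 0 to 2 without any 1 mouse. Shell minus proximal diaphysis called 2 members. The count was 0 with the erythroid covariate, 1 without the filter, with upper-quartile scaling, in one fit with one spread or with no replicate block, 4 with a pseudocount of 5 or DESeq2, 5 without 7 libraries, 6 with the muscle covariate, 9 with sample weights and 1 to 4 without any 1 mouse. The shares of all genes called under the other settings are not given in this section, so changed counts are not read as results about the members. Without the pairing by mouse (no replicate block) the adjusted p was 0.0531 for Ndrg1 in shell minus mid-diaphysis and 0.572 for Ddit4 in shell minus proximal diaphysis, and the block changed no other call between control segments or under loading.

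The values that changed sign had not been called. Epas1 in shell minus mid-diaphysis was 0.0300 with upper-quartile scaling and -0.17 to 0.0031 without any 1 mouse. Hif1a in shell minus proximal diaphysis was -0.0159 with the muscle covariate, -0.0251 with the erythroid covariate, -0.0144 without 7 libraries and -0.0043 to 0.0815 without any 1 mouse. Hif1a in proximal minus mid-diaphysis was -0.0724 with the erythroid covariate, -0.0073 without the 3 marrow-rich libraries and -0.0468 to 0.13 without any 1 mouse, and in shell minus mid-diaphysis it was -0.0250 to 0.17. Under loading, Aldoc in the shell at 24 h was 0.0211 with sample weights, Pfkm in the proximal diaphysis at 5 d 0.35 with the muscle covariate, Gapdh in the mid-diaphysis at 5 d -0.0867 without the 4 or 7 libraries, and Egln3 in the shell at 24 h -0.11 to 0.78 without any 1 mouse. The cause was not tested. Eno1 and Car9, with 19 and 175 reads over all libraries, were too low to test.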

Other observations

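Among other genes of the pathway, 2 that encode enzymes of collagen maturation had loading differences in the same direction in all mice of some times, though none passed the threshold. P4ha2, a subunit of a collagen prolyl hydroxylase, averaged over segments at 0.89 ± 0.27 at 24 h (higher in 4 of 4 mice, limma, adjusted p = 1) and -1.22 ± 0.27 at 7 d (lower in 4 of 4, limma, adjusted p = 0.0550). Loxl2, a lysyl oxidase that crosslinks collagen, averaged 0.92 ± 0.28 at 24 h (higher in 4 of 4, limma, adjusted p = 1), -1.06 ± 0.25 at 5 d (lower in 5 of 5, limma, adjusted p = 0.145) and -1.01 ± 0.28 at 7 d (lower in 4 of 4, limma, adjusted p = 0.118). Both were chosen after their values were seen. Between control segments Loxl2 was lower in the shell than in the proximal diaphysis by -0.98 ± 0.22 (limma, adjusted p = 0.00916, lower in 18 of 22 mice).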
